A study of Mus musculus with 16 samples.

Results

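Collagen genes were followed in the gastrocnemius, a mixed calf muscle, of mice missing one calcineurin subunit or another. The family was taken as every probe set whose single annotated symbol had the form Col, number, a, number. This gave 46 probe sets of 44 genes, out of 21789 single-symbol probe sets of 19938 genes. Each gene was read from its probe set with the highest mean over all 16 arrays. The 44 genes comprised 11 fibrillar collagens, 8 collagens of basement membranes and 25 others. All 44 lay above the level, 6.18 on the log2 scale, below which the dimmest 30% of probe sets were not tested.

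The study used Affymetrix Mouse Gene 1.0 arrays, 1 per animal, with 4 animals in each of 4 groups of male C57Bl6J mice. Ppp3r1 KO mice carried a deletion of the regulatory calcineurin subunit in skeletal muscle only, made by Cre from Mlc1f, a fast myosin light chain gene, and were set against their WT littermates. Ppp3cb KO mice lost a catalytic subunit in the whole body and were likewise set against WT littermates. All 16 animals, controls included, were fed a high-fat diet, with butter fat supplying 40% of calories, over 8 weeks or more. No ages were used here. Values are log2 RMA signals. Since probe sets differ in how brightly they bind, levels were compared between animals and not read as relative abundance of genes. Mean signal was used to choose, filter and group probe sets.

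Collagens are extracellular proteins built from chains that wind into a triple helix. Fibrillar collagens, chiefly types I and III in muscle, are secreted by fibroblasts and form the tensile fibres of the endomysium, perimysium and tendon. Type IV collagen forms the sheet of the basement membrane around each muscle fibre and capillary, and type VI forms beaded microfibrils that tie that sheet to the surrounding fibres. Calcineurin is a calcium-dependent phosphatase that sends NFAT transcription factors into the nucleus, where they bind DNA at a GGAAA core.

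Start-site windows from RefSeq (build GRCm38.p6) were available for 35 of the 44 genes. Col1a2 had the lowest KO minus WT value in the Ppp3r1 line, Col3a1 encodes its partner in mixed fibrils, and Col8a2 was the collagen whose Ppp3r1 groups did not overlap, so their 250 bases upstream of the start are printed 5′ to 3′. Capitals mark CCAAT, a box bound by the factor NF-Y, and GGAAA, each searched on both strands.
Col1a2, chr6:4505368-4505617, plus strand: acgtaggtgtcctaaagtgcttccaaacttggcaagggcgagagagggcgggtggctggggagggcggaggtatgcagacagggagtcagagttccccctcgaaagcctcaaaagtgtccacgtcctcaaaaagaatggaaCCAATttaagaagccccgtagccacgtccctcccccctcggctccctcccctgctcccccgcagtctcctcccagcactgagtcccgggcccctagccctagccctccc
Col3a1, chr1:45311288-45311537, plus strand: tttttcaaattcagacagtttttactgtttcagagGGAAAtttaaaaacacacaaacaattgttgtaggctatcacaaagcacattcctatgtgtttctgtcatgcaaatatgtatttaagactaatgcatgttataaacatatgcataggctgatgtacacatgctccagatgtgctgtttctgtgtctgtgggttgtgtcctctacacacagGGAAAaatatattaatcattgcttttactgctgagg
Col8a2, chr4:126286544-126286793, plus strand: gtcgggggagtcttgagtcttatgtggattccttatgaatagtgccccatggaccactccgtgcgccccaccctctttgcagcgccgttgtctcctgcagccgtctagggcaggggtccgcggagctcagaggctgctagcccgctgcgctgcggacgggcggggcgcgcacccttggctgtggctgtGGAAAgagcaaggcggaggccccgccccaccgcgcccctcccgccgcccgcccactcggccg
The Col1a2 window held 1 CCAAT and 0 GGAAA, the Col3a1 window 2 GGAAA and 0 CCAAT, and the Col8a2 window 1 GGAAA and 0 CCAAT. The NFAT core GGAAA, or its reverse TTTCC, stood in 18 of 38 collagen windows (47.4%), beside 55.6% of all 32851 windows of the same length. CCAAT or ATTGG stood in 13 of 38 (34.2%), beside 33.8% of all windows, and TATAAA or TTTATA in 5 of 38 (13.2%), beside 12.4%. TATAAA is not capitalised, no matches marked in the 3 printed windows overlapped, and a match is a description of the sequence only.

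The arrays were first checked against their labels. Ppp3r1 itself read 9.28, 9.25, 8.98 and 9.19 in Ppp3r1 KO muscle and 9.57, 9.36, 9.39 and 9.64 in WT littermates, so the KO and WT ranges did not overlap. The Ppp3cb probe set did not follow its labels. It lay below 11 in the arrays labelled KO 18, KO 5, WT 23 and WT 24 (10.22 to 10.48) and above 11 in those labelled KO 6, KO 9, WT 12 and WT 2 (11.61 to 11.80), so 4 of the 8 arrays of that line (KO 6, KO 9, WT 23 and WT 24) were mismatched to their label by the transcript. The median over all probe sets was 6.82 to 6.94 in Ppp3r1 KO arrays, 6.81 to 6.91 in their WT littermates, 6.68 to 6.72 in arrays labelled Ppp3cb KO and 6.71 to 6.77 in those labelled WT. The mean level of 10 skeletal muscle markers was 13.83 to 13.96 over all 16 arrays.

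In Ppp3r1 KO muscle no collagen gene passed the test after adjustment. The smallest adjusted p among the 44 was 0.363 for Col8a2 (limma, Benjamini-Hochberg over 15252 probe sets), and 0.00656% of all tested probe sets, 1 in number, were called in that contrast. At an unadjusted p under 0.05, 2 collagens were lower, Col1a2 and Col12a1, and 3 were higher, Col8a2, Col6a6 and Col9a2. The share of all tested probe sets past that mark was 5.35% lower and 6.37% higher, so the collagens' shares lie near the background. KO minus WT was below 0 for 12 of the 44 genes and above 0 for 32, with a median of 0.10 for collagens and 0.02 for all tested probe sets. In whole muscle, fewer cells of a type and less RNA per cell cannot be told apart.

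Single arrays decided these counts. At that unadjusted mark the number of lower collagens was 0 without KO 331, without KO 414, without WT 336 or without WT 415, where 3.99%, 3.02%, 6.98% and 4.27% of all tested probe sets were lower. It was 5 without KO 416, where 10% of all tested probe sets were lower, so the share of collagens stayed near the background. It was 1 without any one of Ppp3cb KO 5, KO 6, KO 9, WT 2, WT 23 and WT 24, which share the variance estimate, beside 4.71% to 5.25% of all tested probe sets. The number of higher ones was 1 without KO 331 or without WT 334, beside 7.09% and 3.28% of all tested probe sets. It was 10 of the 44 without WT 336, a larger share than the 8.44% of all tested probe sets there. Without WT 334 the 44 genes split into 19 lower and 25 higher, with a median of 0.03. Without KO 414 they split into 6 and 38, and without WT 336 into 8 and 36, with a median of 0.16.

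The major fibrillar collagens read lower in Ppp3r1 KO muscle, by an amount close to the spread between animals. Col1a2, which encodes the second chain of type I collagen, read 8.28, 8.68, 8.11 and 9.01 in Ppp3r1 KO muscle (animals 331, 335, 414 and 416), against 8.70, 9.25, 8.58 and 9.13 in WT littermates (animals 334, 336, 413 and 415). KO 414 and KO 331 were the lowest of the 8 arrays, but KO 335 and KO 416 fell inside the WT range, and the groups overlapped. Its KO minus WT difference was -0.40 ± 0.19 SE, with an unadjusted limma p of 0.0491, an adjusted p of 0.426 and a two-sided exact permutation p of 0.171.

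Col1a1, the gene of the main type I chain, read 8.53, 8.83, 8.35 and 9.21 in Ppp3r1 KO muscle, against 8.62, 9.20, 8.85 and 9.15 in WT littermates, with the animals in the same order. KO 416 held the highest value and KO 414 the lowest, so the KO range enclosed the WT range. The difference was -0.23 ± 0.17 SE (adjusted p = 0.581). Col3a1, whose product forms type III fibrils beside type I, read 7.84, 8.44, 8.00 and 8.75 in Ppp3r1 KO muscle, against 8.29, 8.69, 8.35 and 8.74 in WT littermates. Its difference was -0.26 ± 0.17 SE (adjusted p = 0.546), and its lowest arrays were KO 331 and KO 414.

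These genes varied together from animal to animal. Averaged over Col1a1, Col1a2 and Col3a1, the 8 arrays of the line gave 8.22, 8.65, 8.16 and 8.99 in Ppp3r1 KO muscle, against 8.54, 9.05, 8.60 and 9.01 in WT littermates. KO 416, WT 336 and WT 415 stood near 9, while KO 331 and KO 414 stood lowest. The group means were 8.50 ± 0.39 in KO muscle and 8.80 ± 0.27 in WT littermates (SD, n = 4 each). The within-group SD of these genes was 0.30 for Col1a2, 0.27 for Col1a1 and 0.27 for Col3a1. Leaving out 1 array at a time kept the difference below 0 for each of them and moved it between -0.56 and -0.26 for Col1a2, -0.39 and -0.10 for Col1a1, and -0.42 and -0.12 for Col3a1.

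The minor fibrillar collagens, types II, V, XI, XXIV and XXVII, had KO minus WT values above 0. They ranged from 0.0016 for Col24a1 to 0.15 for Col5a3, all 8 with adjusted p of at least 0.481. Col5a3, a chain of type V collagen, which regulates fibril diameter, read 7.79, 7.62, 7.68 and 7.71 in Ppp3r1 KO muscle, against 7.33, 7.64, 7.62 and 7.62 in WT littermates. Among WT arrays 334 stood apart at 7.33, with the other 3 between 7.62 and 7.64. Col2a1, the main collagen of cartilage, read 7.99, 8.16, 8.02 and 8.09 in Ppp3r1 KO muscle, against 7.79, 8.27, 7.88 and 7.85 in WT littermates. Its groups overlapped, since WT 336 held the highest value. Col11a1, a chain of type XI collagen of cartilage fibrils, read 7.68, 7.67, 7.40 and 7.35 in Ppp3r1 KO muscle, against 7.26, 7.53, 7.52 and 7.32 in WT littermates, with KO 331 and KO 335 highest and a difference of 0.12 ± 0.09 SE. Over all 11 fibrillar genes the median difference was 0.07, with 3 lower and 8 higher.

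**Figure D1:**
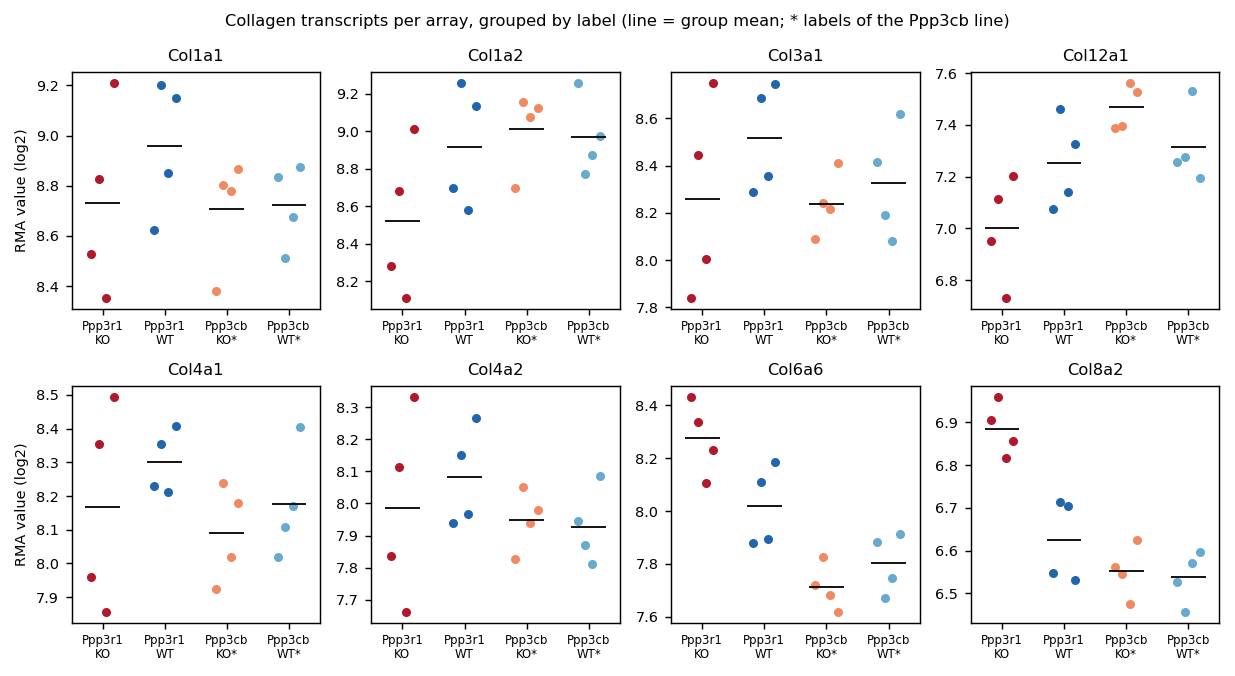
Log2 RMA values of collagen genes in each array, with group means, Ppp3r1 KO left of WT and Ppp3cb KO left of WT. The KO and WT points overlap for Col1a1, Col1a2 and Col3a1 in both lines, and Col8a2 lies at 6.82 to 6.96 in Ppp3r1 KO arrays against 6.53 to 6.71 in WT arrays.

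Basement membrane collagens were mixed. The chains found in nearly every basement membrane, Col4a1 and Col4a2, and Col15a1, a basement membrane proteoglycan collagen of muscle and capillaries, had values below 0, and the other 5 had values above 0. Col4a1 read 7.96, 8.36, 7.86 and 8.49 in Ppp3r1 KO muscle, against 8.23, 8.36, 8.21 and 8.41 in WT littermates. Col4a2 read 7.84, 8.11, 7.66 and 8.33 in Ppp3r1 KO muscle, against 7.94, 8.15, 7.97 and 8.27 in WT littermates. In both genes KO 414 and KO 331 were the lowest arrays and the KO values spread more widely than the WT values, with SDs of 0.31 against 0.10 for Col4a1 and 0.30 against 0.15 for Col4a2.

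The differences were -0.13 ± 0.13 SE for Col4a1 (adjusted p = 0.674) and -0.09 ± 0.12 SE for Col4a2 (adjusted p = 0.761). Without KO 414 the Col4a2 value turned to 0.01. In the RefSeq annotation the genes lie head to head on chromosome 8, with start sites at 11312826 on the minus strand for Col4a1 and 11312805 on the plus strand for Col4a2. Col4a6 and Col4a5, which lie head to head on chromosome X with starts 1343 bases apart, had differences of 0.09 and 0.15.

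Col15a1 read 7.58, 7.78, 7.51 and 8.22 in Ppp3r1 KO muscle, against 7.88, 7.92, 7.70 and 8.07 in WT littermates, and KO 416 held the highest value and KO 414 the lowest, so the KO arrays again enclosed the WT arrays. Its difference was -0.12 ± 0.14 SE. Col4a5, a chain of the specialised type IV networks known from kidney glomeruli, read 6.84, 6.85, 6.88 and 6.94 in Ppp3r1 KO muscle, against 6.35, 7.06, 6.81 and 6.69 in WT littermates. All 4 KO arrays lay between 6.84 and 6.94, and WT 334 at 6.35 and WT 336 at 7.06 were the lowest and the highest of the line. Its difference was 0.15 ± 0.11 SE.

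Col4a3 and Col4a4 encode chains that assemble with that of Col4a5 in kidney. Col4a3 read 7.36, 7.23, 7.03 and 7.10 in Ppp3r1 KO muscle, against 6.89, 7.21, 7.13 and 7.08 in WT littermates. Col4a4 read 7.79, 7.54, 7.43 and 7.39 in Ppp3r1 KO muscle, against 7.39, 7.56, 7.40 and 7.41 in WT littermates. In both genes KO 331 held the highest value and the groups overlapped, with differences of 0.11 ± 0.09 SE and 0.10 ± 0.09 SE. Col18a1, the precursor of endostatin, read 7.71, 7.70, 7.65 and 7.65 in Ppp3r1 KO muscle, against 7.35, 7.72, 7.66 and 7.50 in WT littermates, a difference of 0.12 ± 0.10 SE in which WT 336 again held the highest value. The median of the 8 genes was 0.09, and 0 of them passed the unadjusted mark.

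Among the other collagens the clearest separation was that of Col8a2, a short-chain collagen that forms hexagonal networks in the eye and in vessel walls. It read 6.91, 6.96, 6.82 and 6.86 in Ppp3r1 KO muscle, against 6.55, 6.71, 6.70 and 6.53 in WT littermates. All 4 KO arrays lay above all 4 WT arrays, the nearest being 6.82 in KO 414 and 6.71 in WT 336. The difference was 0.26 ± 0.07 SE, with an unadjusted p of 0.00196, an adjusted p of 0.363 and an exact permutation p of 0.0286, the smallest that 4 against 4 arrays can give. Separation in that direction was found for 3.15% of all tested probe sets and in the lower direction for 1.71%, against 1 and 0 of the 44 collagens.

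Col6a6, an alternative to the Col6a3 chain of type VI collagen, read 8.43, 8.34, 8.11 and 8.23 in Ppp3r1 KO muscle, against 7.88, 8.11, 7.90 and 8.19 in WT littermates. KO 331, KO 335 and KO 416 lay above all WT arrays, and KO 414 lay inside the WT range. The difference was 0.26 ± 0.10 SE (unadjusted p = 0.0155, adjusted p = 0.366). A second, dimmer Col6a6 probe set had a KO minus WT value of 0.02, so the probe sets of this gene disagreed. Col9a2, a chain of type IX collagen, which decorates cartilage fibrils, read 8.52, 8.32, 8.13 and 8.21 in Ppp3r1 KO muscle, against 7.93, 8.27, 8.15 and 7.91 in WT littermates, with a difference of 0.23 ± 0.10 SE (adjusted p = 0.410) and overlapping groups.

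Col12a1 was the other gene on the lower side. Its product, type XII collagen, sits on the surface of type I fibrils in tendon and muscle connective tissue. It read 6.95, 7.11, 6.73 and 7.20 in Ppp3r1 KO muscle, against 7.08, 7.46, 7.14 and 7.32 in WT littermates. KO 414 and KO 331 were the lowest and WT 336 and WT 415 the highest, and KO 335 and KO 416 fell between the WT values. The difference was -0.25 ± 0.11 SE (unadjusted p = 0.0359, adjusted p = 0.403).

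The classical type VI chains, whose loss causes congenital muscle disease in humans, had differences near 0. Col6a1 read 8.11, 8.28, 8.00 and 8.46 in Ppp3r1 KO muscle, against 7.85, 8.35, 8.02 and 8.46 in WT littermates. Col6a2 read 8.29, 8.57, 8.20 and 8.64 in Ppp3r1 KO muscle, against 8.19, 8.68, 8.19 and 8.77 in WT littermates. Col6a3 read 7.76, 8.16, 7.84 and 8.40 in Ppp3r1 KO muscle, against 7.78, 8.18, 7.99 and 8.24 in WT littermates. Their differences were 0.04 ± 0.14 SE, -0.03 ± 0.14 SE and -0.01 ± 0.14 SE, each smaller than its error. All 4 transmembrane collagens, Col13a1, Col17a1, Col23a1 and Col25a1, lay above 0, between 0.10 and 0.23, with adjusted p of at least 0.443. Col7a1, the anchoring fibril collagen, had a value of 0.20 ± 0.10 SE. Over the 25 other collagens the median was 0.12, with 6 lower and 19 higher.

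**Figure D2:**
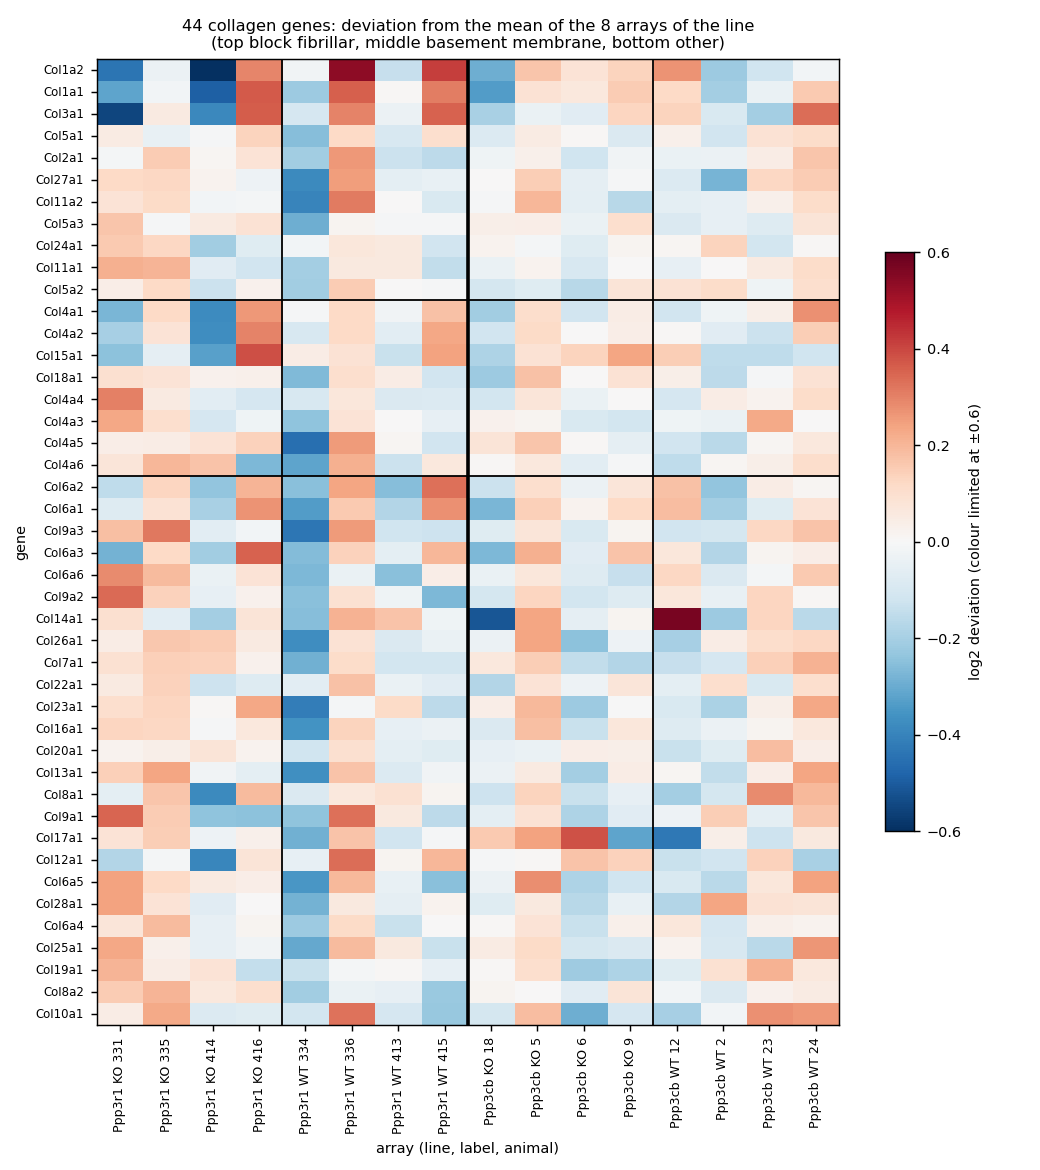
Log2 value of each of the 44 collagen genes in each array, minus the gene's mean over the 8 arrays of its own line, with columns by group (KO left of WT in each line) and rows by class. The column of WT 334 holds the lowest value of its line for 26 genes, and WT 336 holds the highest for 15.

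The position of single arrays ran across the whole family. WT 334 held the lowest of the 8 Ppp3r1-line values for 26 of the 44 genes and the highest for 0, and the same array was lowest for 20.7% and highest for 17.9% of all tested probe sets. WT 336 was highest for 15 collagens and lowest for 0 (9.02% and 14.6% of all tested probe sets). Of the KO arrays, 331 was highest for 12 collagens and lowest for 2 (12.3% and 24.9% of all tested probe sets). KO 414 was highest for 0 and lowest for 9 (19.1% and 10.9%), and KO 416 was highest for 9 and lowest for 3 (19.5% and 8.16%). The median over all probe sets was 6.81 in WT 334, 6.91 in WT 336, 6.94 in KO 331 and 6.87 in KO 414, and the part of this in the collagen values was not tested.

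The sign of the KO minus WT value differed with the signal level, for collagens as for all tested probe sets. Of the 8 collagens with a mean of at least 8, 6 were lower, with a median of -0.08, while of the 36 below 8, 30 were higher, with a median of 0.11. Over all tested probe sets the medians were -0.04 for the 6846 at or above 8 and 0.05 for the 8406 below 8. The level of 8 was chosen after the values were seen. The part of signal level in the collagen differences was not tested.

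**Figure D3:**
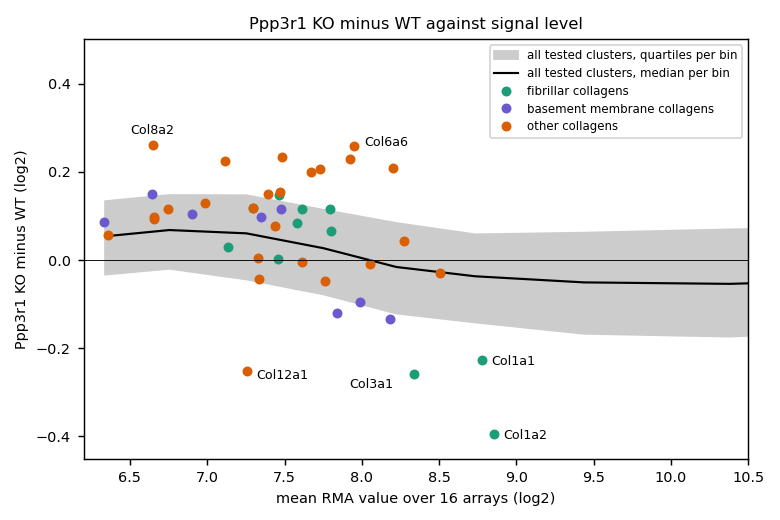
Ppp3r1 KO minus WT (log2) of each collagen gene against its mean log2 signal, coloured by class, over the median and quartiles of all tested probe sets in bins of signal. The median of all tested probe sets is above 0 below a level of 8 and below 0 at higher levels. Col1a2, Col12a1, Col3a1 and Col1a1 lie furthest below the lower quartile, and Col15a1 and Col4a1 lie just below it.

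Proteins that work beside collagens were read from lists of named genes. In the Ppp3r1 contrast 45.78% of all tested probe sets were lower, and 59.1% of those at or above a level of 8. Small leucine-rich proteoglycans, which coat collagen fibrils and set their spacing, were all on the lower side in Ppp3r1 KO muscle, with 8 of 8 tested members below 0 and a median of -0.45, and 0 of them passed the adjusted test. Fmod, fibromodulin, read 8.00, 9.42, 7.94 and 9.13 in Ppp3r1 KO muscle and 9.27, 10.23, 9.62 and 10.16 in WT littermates, a difference of -1.20 ± 0.32 SE (unadjusted p = 0.00138). Kera and Aspn differed by -0.56 ± 0.19 and -0.48 ± 0.18. KO 331 and KO 414, the arrays lowest in the major fibrillar collagens, were also lowest for Fmod and Aspn.

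The folding machinery was mixed. Of 17 tested genes that modify or fold procollagen, 12 were lower and 5 higher, with a median of -0.02. The counts here stand beside 45.78% lower among all tested probe sets and 59.1% among those at or above 8. P4ha1, a catalytic subunit of prolyl hydroxylase, differed by -0.32 ± 0.13, and Serpinh1, the collagen chaperone HSP47, by -0.25 ± 0.10, while Colgalt1, which adds galactose to collagen, was at 0.29 ± 0.12 (adjusted p = 0.371, 0.379 and 0.391). Of 11 genes for procollagen processing and crosslinking, 7 were lower. Adamts14, a procollagen protease, was at 0.23 ± 0.08 with all 4 KO arrays above all WT arrays, while Pcolce and Sparc were at -0.44 ± 0.22 and -0.40 ± 0.24. Over all the partner lists, Lama5 was also separated on the higher side, and P3h2, Fap, Reck, Kera and Smad3 on the lower side. Among all tested probe sets 3.15% were separated on the higher and 1.71% on the lower side. Of 10 genes for collagen breakdown and its inhibitors, 7 were lower. There Mmp9, gelatinase B, was at 0.39 ± 0.14, Timp4, a metalloproteinase inhibitor, at 0.39 ± 0.15 and Fap, fibroblast activation protein, at -0.36 ± 0.17, each with an adjusted p of at least 0.366.

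Of 8 collagen receptors, 7 were lower, with a median of -0.06. Of 10 laminins and other partners of type IV collagen, 9 were lower, with a median of -0.08, and Lama5 was at 0.26 ± 0.10. Both counts stand beside 45.78% lower among all tested probe sets and 59.1% among those at or above 8, where the median was -0.04. Of 14 genes of the TGF-beta pathway, which in textbooks drives collagen transcription, 7 were lower and 7 higher, and Smad3 was at -0.30 ± 0.14. Activators, inhibitors and targets of the pathway were not set apart in this list. In these lists 0 genes passed the adjusted test.

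Markers of the cells that make collagen were read beside these values. The mean level of 11 fibroblast markers was 8.53 to 9.12 in Ppp3r1 KO arrays and 8.76 to 9.16 in WT arrays, with 9 of 11 lower and a median of -0.10. The 9 endothelial markers averaged 8.26 to 9.09 in KO and 8.65 to 8.91 in WT arrays, with 7 lower. Among all tested probe sets 45.78% were lower, and 59.1% of those at or above 8. The 10 tendon markers on the array averaged 6.86 to 7.24 in KO and 6.86 to 7.42 in WT arrays. Of the 8 that were tested 4 were lower and 4 higher, among them Thbs4 at -0.82 ± 0.25 and Scx at 0.29 ± 0.11. The part of these cells in the collagen values was not tested.

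By label, the Ppp3cb line showed no collagen difference beyond the spread between animals. Of the 44 genes 28 were lower and 16 higher in arrays labelled KO, with a median of -0.02 beside 0.01 for all tested probe sets. At an unadjusted p under 0.05, 0 were lower and 0 higher, where 0.859% and 0.872% of all tested probe sets lay, and all adjusted p were at least 0.9998. The labelled groups overlapped for all 44 genes, while 0.734% of all tested probe sets were separated on the lower side and 0.774% on the higher side. Dropping KO 6, KO 9, WT 23 and WT 24, which leaves 2 against 2, turned the split to 13 lower and 31 higher, with a median of 0.04 beside 0.02 for all tested probe sets. It put 1 collagen past the unadjusted mark, on the higher side, beside 3.68% of all tested probe sets. The dropped arrays were picked by their Ppp3cb value, so these counts are a description and not a test. Without WT 24 the split was 19 lower and 25 higher, and without KO 5 it was 36 lower and 8 higher, so the direction of the split rested on single arrays.

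Col1a2 read 8.70, 9.16, 9.07 and 9.12 in the arrays labelled Ppp3cb KO (animals 18, 5, 6 and 9), against 9.26, 8.77, 8.87 and 8.97 in those labelled WT (animals 12, 2, 23 and 24). Col1a1 read 8.38, 8.80, 8.78 and 8.86 in the arrays labelled Ppp3cb KO, against 8.83, 8.51, 8.67 and 8.87 in those labelled WT. Col3a1 read 8.09, 8.24, 8.21 and 8.41 in the arrays labelled Ppp3cb KO, against 8.42, 8.19, 8.08 and 8.62 in those labelled WT. KO 18 was the lowest array for Col1a2 and Col1a1, WT 23 was the lowest for Col3a1, and the remaining KO arrays lay among the WT arrays. The differences were 0.04 ± 0.19 SE, -0.02 ± 0.17 SE and -0.09 ± 0.17 SE.

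Col5a2, the second chain of type V collagen, had one of the smallest unadjusted p in the line (0.131). It read 6.93, 6.96, 6.87 and 7.11 in the arrays labelled Ppp3cb KO, against 7.12, 7.14, 7.01 and 7.14 in those labelled WT, with a difference of -0.14 ± 0.09 SE and an exact permutation p of 0.0571. Only KO 9, at 7.11, lay inside the WT range. Col17a1, a transmembrane collagen of hemidesmosomes, read 7.40, 7.49, 7.63 and 6.93 in the arrays labelled Ppp3cb KO, against 6.82, 7.28, 7.12 and 7.31 in those labelled WT, with KO 6 highest and WT 12 lowest, and a difference of 0.23 ± 0.14 SE. Col15a1 read 7.66, 7.93, 7.98 and 8.08 in the arrays labelled Ppp3cb KO, against 7.99, 7.69, 7.69 and 7.72 in those labelled WT, where WT 12 stood apart from the other WT arrays, and differed by 0.14 ± 0.14 SE. 

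The other minor fibrillar genes lay close together in the line. Col5a3 read 7.34, 7.34, 7.26 and 7.40 in the arrays labelled Ppp3cb KO, against 7.22, 7.25, 7.23 and 7.38 in those labelled WT. Col2a1 read 7.56, 7.62, 7.47 and 7.57 in the arrays labelled Ppp3cb KO, against 7.55, 7.55, 7.63 and 7.75 in those labelled WT. Col5a1, the main type V chain, read 7.65, 7.78, 7.74 and 7.65 in the arrays labelled Ppp3cb KO, against 7.77, 7.62, 7.82 and 7.84 in those labelled WT. Their ranges overlapped, and the differences were 0.07 ± 0.08 SE, -0.07 ± 0.10 SE and -0.06 ± 0.09 SE.

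Among the basement membrane genes, Col4a1 read 7.93, 8.24, 8.02 and 8.18 in the arrays labelled Ppp3cb KO, against 8.02, 8.11, 8.17 and 8.41 in those labelled WT, where KO 18 was lowest and WT 24 highest. Col4a1 differed by -0.09 ± 0.13 SE, Col4a2 by 0.02 ± 0.12 SE and Col6a1, Col6a2 and Col6a3 by 0.0035 ± 0.14 SE, 0.0032 ± 0.14 SE and 0.02 ± 0.14 SE. Col19a1, a collagen that sits beside fibrils, read 6.53, 6.63, 6.31 and 6.34 in the arrays labelled Ppp3cb KO, against 6.45, 6.62, 6.74 and 6.59 in those labelled WT, with KO 6 lowest and WT 23 highest. Col10a1, the collagen of hypertrophic cartilage, read 6.02, 6.31, 5.83 and 6.02 in the arrays labelled Ppp3cb KO, against 5.92, 6.11, 6.40 and 6.38 in those labelled WT, and again KO 6 was lowest. These genes differed by -0.15 ± 0.09 SE and -0.16 ± 0.13 SE.

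Regrouped by the Ppp3cb probe set, the same 8 arrays gave sets of 4 below 11 and 4 above 11. These sets were defined from the data, so values are given without a test. Of the 44 collagens 34 averaged higher in the arrays below 11 and 10 lower, with a median of 0.08. Of all 15252 tested probe sets 8154 averaged higher, with a median of 0.01. Among those with a mean level below 8, 5360 of 8406 were higher (median 0.05), as were 30 of 36 collagens (median 0.08). At or above 8, 2794 of 6846 were higher (median -0.03), as were 4 of 8 collagens (median -0.02). The sets did not overlap for 7 collagens on the higher side and 0 on the lower, beside 6.58% and 5.58% of all tested probe sets. Without KO 18 the higher count was 15, beside 11.22% of all tested probe sets, and without WT 2 the lower count was 1, beside 8.85%.

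The separated genes were Col27a1 and Col11a2 among the fibrillar, Col4a3 and Col4a5 among the basement membrane, and Col7a1, Col23a1 and Col6a5 among the other collagens. Col7a1 read 7.52, 7.61, 7.60 and 7.67 in the arrays below 11 (KO 18, KO 5, WT 23 and WT 24), against 7.31, 7.28, 7.32 and 7.36 in those above 11 (KO 6, KO 9, WT 12 and WT 2). Col6a5 read 6.85, 7.17, 6.96 and 7.13 in the arrays below 11, against 6.70, 6.77, 6.80 and 6.73 in those above 11. Col27a1 read 7.39, 7.54, 7.51 and 7.54 in the arrays below 11, against 7.34, 7.38, 7.31 and 7.11 in those above 11.

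The lowest array below 11 was KO 18 for Col7a1, Col6a5 and Col27a1. Col23a1, a transmembrane collagen, spanned 7.39 to 7.59 in the arrays below 11 and 7.13 to 7.35 in those above. Col4a3 spanned 6.68 to 6.91 in the arrays below 11 and 6.57 to 6.65 in those above, and Col4a5 6.49 to 6.65 in the arrays below 11 and 6.32 to 6.49 in those above. Col11a2 spanned 7.38 to 7.58 in the arrays below 11 and 7.22 to 7.34 in those above. All 7 had a mean level below 8, where 719 of 8406 tested probe sets were separated on the higher and 235 on the lower side. Col1a2 overlapped, with 8.70 to 9.16 in the arrays below 11 and 8.77 to 9.26 in those above, and so did Col1a1 and Col3a1.

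**Figure D4:**
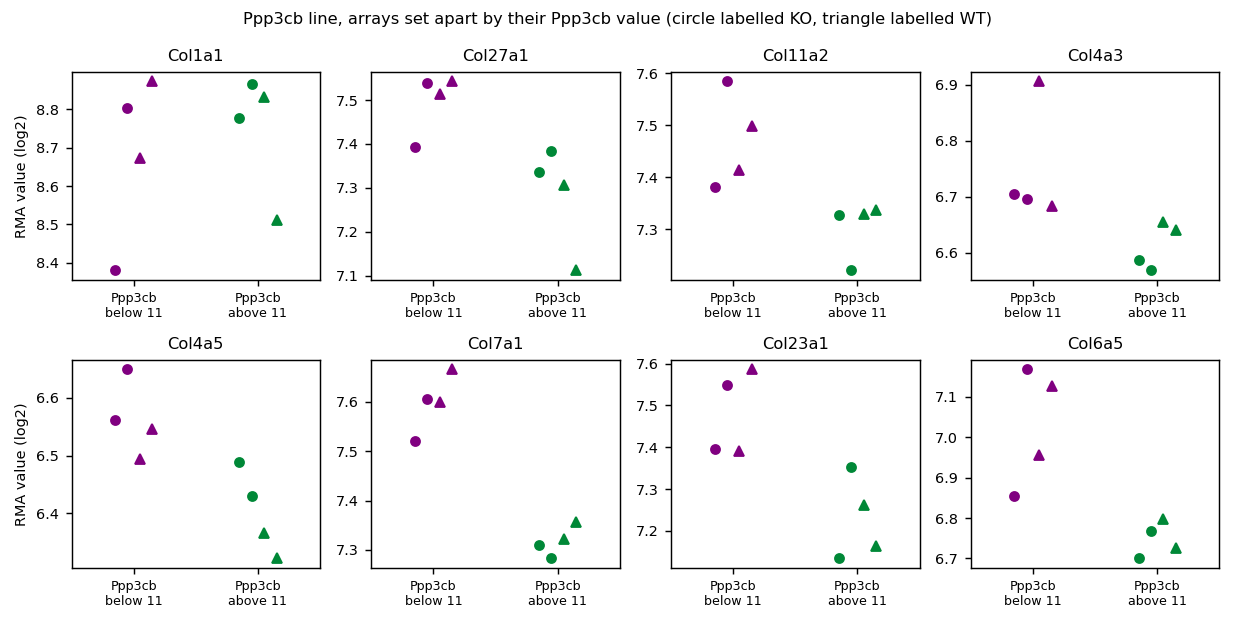
Log2 RMA values of Col1a1 and of the 7 separated collagens in the 8 arrays of the Ppp3cb line, with arrays whose Ppp3cb value is below 11 on the left and those above 11 on the right, circles for arrays labelled KO and triangles for those labelled WT. Each separated gene lies higher in the left set, and Col1a1 overlaps.

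Arrays labelled WT were compared between the lines as well. Those of the Ppp3cb line are WT by label only, since WT 23 and WT 24 lay below 11 for Ppp3cb. In WT muscle of the Ppp3r1 line 18 collagens were higher and 1 was lower than in WT muscle of the Ppp3cb line at an adjusted p under 0.05, where 10.7% of all tested probe sets were higher and 24.3% lower. The median over the 44 genes was 0.25, and it was -0.10 over all tested probe sets. Joint normalization of the lines is not stated in the labels, and line and array processing cannot be told apart. Without Ppp3r1 WT 336, 7 collagens were called higher and 1 lower, beside 5.3% and 15% of all tested probe sets. The counts were 11 higher and 1 lower without Ppp3r1 WT 413 (6.9% and 16.4%), 10 and 1 without Ppp3cb WT 12 (7.09% and 18.2%), and 12 and 0 without the 4 mismatched arrays of the Ppp3cb line (7.51% and 14.3%).

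Several lists of cell markers and collagen partners lay on the lower side in this line difference. Of all tested probe sets 61.55% were lower, and 80.35% of those at or above a level of 8, where the median was -0.21. Called lower were 24.3% of all tested probe sets, 2322 of the 6846 at or above 8 and 1388 of the 8406 below 8. Adipocyte markers had 2 lower and 5 higher, skeletal muscle markers 2 and 8, and Schwann cell markers 2 and 2. All 9 macrophage markers were lower in WT muscle of the Ppp3r1 line and were called, with a median of -0.86 and mean levels of 6.77 to 7.18 in Ppp3r1-line WT and 7.46 to 8.07 in Ppp3cb-line WT arrays. Of 11 fibroblast markers 10 were lower, 5 of them called, with a median of -0.37 and mean levels of 8.76 to 9.16 in Ppp3r1-line WT and 8.98 to 9.46 in Ppp3cb-line WT arrays. Of 8 tested small leucine-rich proteoglycans 7 were lower, 4 of them called, with a median of -0.42. Their part in the collagen values was not tested.

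The higher genes came from each class and were mostly dim on the array. Col9a1, a type IX chain, averaged 7.63 ± 0.25 in Ppp3r1-line WT and 7.09 ± 0.12 in Ppp3cb-line WT muscle (SD, n = 4 each), a difference of 0.54 ± 0.14 SE (adjusted p = 0.00765). All 4 Ppp3r1-line arrays lay above all 4 Ppp3cb-line arrays for this gene. Col6a4, another type VI chain, read 6.76, 7.09, 6.84 and 6.98 in Ppp3r1-line WT muscle, against 6.58, 6.41, 6.54 and 6.53 in Ppp3cb-line WT muscle. Col22a1, a collagen of the muscle-tendon junction, read 7.73, 7.97, 7.76 and 7.73 in Ppp3r1-line WT muscle, against 7.37, 7.53, 7.33 and 7.52 in Ppp3cb-line WT muscle. These also did not overlap, with differences of 0.41 ± 0.09 SE and 0.36 ± 0.09 SE. The WT groups were separate for 8 collagens on the higher and 1 on the lower side. Among all 15252 tested probe sets 1292 were separated on the higher and 3457 on the lower side. Col25a1, a transmembrane collagen, read 6.63, 7.13, 7.00 and 6.80 in Ppp3r1-line WT muscle, against 6.40, 6.28, 6.22 and 6.65 in Ppp3cb-line WT muscle, where Ppp3r1-line WT 334 and Ppp3cb-line WT 24 overlapped, and differed by 0.50 ± 0.11 SE.

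Of the fibrillar genes, Col24a1 read 7.63, 7.72, 7.71 and 7.53 in Ppp3r1-line WT muscle, against 7.28, 7.40, 7.15 and 7.27 in Ppp3cb-line WT muscle. Col27a1 read 7.45, 8.08, 7.78 and 7.79 in Ppp3r1-line WT muscle, against 7.31, 7.11, 7.51 and 7.54 in Ppp3cb-line WT muscle. The groups were separate for Col24a1 and overlapped for Col27a1 through Ppp3r1-line WT 334, and the differences were 0.37 ± 0.09 SE and 0.41 ± 0.12 SE. Col2a1 and Col5a3 were at 0.32 and 0.28, and of the basement membrane genes Col4a3 was at 0.35 ± 0.09 SE and Col4a5 at 0.30 ± 0.11 SE. The groups were also separate for Col2a1, for Col11a1 at 0.26 ± 0.09 SE and for Col9a2 at 0.37 ± 0.10 SE. So were those of Col4a4, at 0.22 ± 0.09 SE, which was not called (limma, adjusted p = 0.0664).

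Col8a1, a short-chain collagen of vessel walls, was the lower one, at -0.42 ± 0.13 SE (adjusted p = 0.0182), and its WT groups did not overlap. The major chains were not among the called genes. Col1a2 differed by -0.05 ± 0.19 SE, Col1a1 by 0.23 ± 0.17 SE, Col3a1 by 0.19 ± 0.17 SE, Col4a1 by 0.12 ± 0.13 SE and Col6a3 by -0.0033 ± 0.14 SE. Of the 36 collagens below a level of 8, 33 were higher, while of the 8 at or above 8 4 were higher. All tested probe sets showed medians of 0.03 below 8 and -0.21 at or above 8.

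The KO effect was compared between the lines in one model. The difference of effects, Ppp3r1 line minus Ppp3cb line, passed the adjusted test for 0 collagens, with a smallest adjusted p of 0.821. At an unadjusted p under 0.05, 1 was lower, Col12a1 at -0.40 ± 0.16 SE, and 3 were higher, Col6a6 at 0.35 ± 0.14 SE, Col9a2 at 0.31 ± 0.14 SE and Col8a2 at 0.25 ± 0.10 SE. Among all tested probe sets 2.75% were lower and 2.56% higher at that mark. Without Ppp3r1 WT 336 the higher count was 7, beside 4.31% of all tested probe sets, and without Ppp3cb KO 5 it was 6, beside 3.34%. It was 1 without Ppp3cb KO 6, Ppp3r1 KO 335 or Ppp3r1 WT 415, beside 2%, 2.69% and 2.73%. Without Ppp3r1 KO 416 the lower count was 3, beside 6.92%. With the 4 mismatched arrays of the Ppp3cb line dropped it was 0 on both sides, beside 1.73% lower and 1.4% higher.

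Col12a1 had values of -0.25 ± 0.11 SE in the Ppp3r1 line and 0.15 ± 0.11 SE in the Ppp3cb line. In the Ppp3cb line it read 7.39, 7.40, 7.56 and 7.53 in the arrays labelled Ppp3cb KO, against 7.26, 7.28, 7.53 and 7.20 in those labelled WT, and KO 6 alone lay above all arrays labelled WT. Col1a2 had a difference of effects of -0.44 ± 0.26 SE (unadjusted p = 0.114). Col8a2 read 6.56, 6.55, 6.48 and 6.62 in the arrays labelled Ppp3cb KO, against 6.53, 6.46, 6.57 and 6.60 in those labelled WT in the Ppp3cb line, where its groups overlapped.

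**Figure D5:**
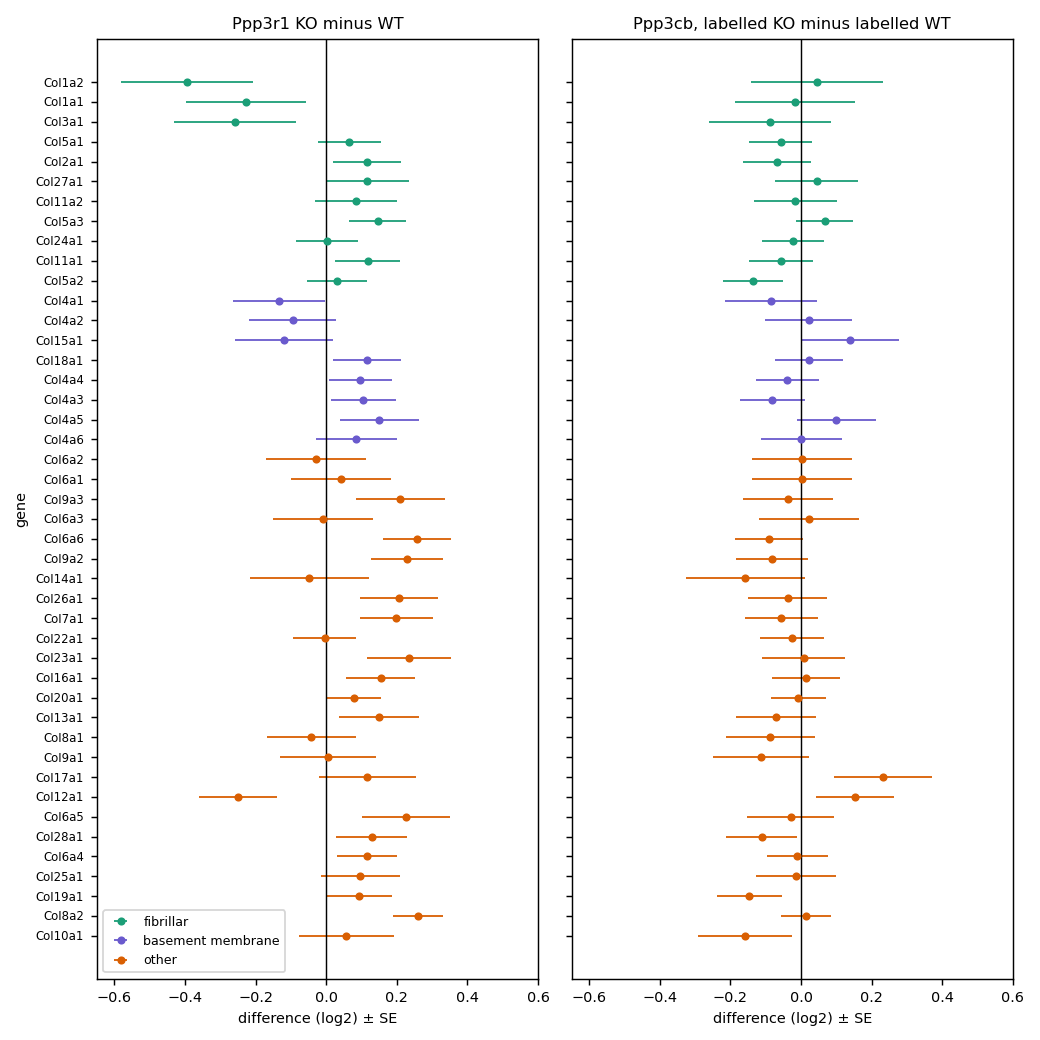
KO minus WT difference (log2) of each collagen gene in the Ppp3r1 line and in the Ppp3cb line by label, with bars of 1 SE, grouped by class. The Ppp3r1 values run from -0.40 for Col1a2 to 0.26 for Col8a2 and the Ppp3cb values from -0.16 for Col10a1 to 0.23 for Col17a1.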

How the data were processed

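Total RNA of the gastrocnemius was hybridised to 16 arrays. Per the submitters' processing notes, the authors used GCOS 1.0 and RMA, and the log2 signals they deposited were taken as they stood. Joint normalization of the lines is not stated in the labels. Another deposited table held the same log2 signals, with 0 values differing. Deposited ratio values, each called normalized per the file headers, were assigned to samples and not used further. Samples were assigned to 48 columns by name. Windows of 250 bases before each start were searched for motifs.

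Gene symbols came from the platform's annotation, and start sites and windows from RefSeq. Probe sets with 1 symbol and a mean at or above the 30th percentile were tested (15252, for 13919 genes) with limma 3.58.1 in R 4.3.3: 4 group means over all 16 arrays, eBayes with an intensity trend, Benjamini-Hochberg adjustment over all tested probe sets, called at an adjusted p under 0.05. The model had 12 residual degrees of freedom. Single genes were also given a two-sided exact permutation test, whose smallest p for 4 against 4 is 0.0286. The script was tested on simulated data. Arrays limit precision by their number, and replicates are separate animals by their labels.

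Genes were named when they were among the up to 4 smallest p of their class in a contrast, or were Col1a1, Col1a2, Col3a1, Col4a1, Col4a2 or Col6a1 to Col6a3. Other members are given by range or count, and values, ranges or differences were added for genes whose groups did not overlap. The members, classes and lists were chosen with earlier results of these data known. Alternatives changed the filter, normalization, model, array weights and arrays used.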

Additional observations from a re-analysis of the deposited data

Results flagged for a closer look

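In 6 of 136 sets of 4 arrays (31 named collagens and 3 class means in 4 groups), 1 value stood far from the other 3, where chance alone gives about 1 group in 20. In WT littermates of the Ppp3r1 line, Col5a3 read 7.33 in animal 334 and 7.62 to 7.64 in the others. Animal 336 of the same group read 7.56 for Col4a4, with the others at 7.39 to 7.41, and 7.97 for Col22a1, with the others at 7.73 to 7.76. In the Ppp3cb line, the array labelled KO 5 read 7.79 for Col9a2, with the others at 7.55 to 7.58. The array labelled WT 12 read 7.99 for Col15a1, with the others at 7.69 to 7.72, and WT 23 read 6.91 for Col4a3, with the others at 6.64 to 6.68.

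For 2 of the same 34 measures every KO array lay on one side of its WT mean in the Ppp3r1 line and every array labelled KO lay on the opposite side of its WT mean in the Ppp3cb line. Effects of opposite sign, whatever the spread, were found for 28 of all 44 collagens. With 32 of the 44 above 0 in the Ppp3r1 line and 28 below 0 in the Ppp3cb line, many opposite signs follow from these counts alone. Shares over all tested probe sets were not counted for either measure, so neither count sets collagens apart. Col2a1 differed by 0.12 in the Ppp3r1 line and -0.07 in the Ppp3cb line, a difference of effects of 0.18 with an unadjusted p of 0.192. Col12a1 differed by -0.25 and 0.15, a difference of effects of -0.40 with an unadjusted p of 0.0187 and an adjusted p of 0.821 (limma). In the Ppp3cb line 4 labels are at odds with the Ppp3cb transcript.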

How the results depend on the processing

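No collagen was called in the Ppp3r1 contrast under its 25 alternative settings, in the Ppp3cb contrast under its 24 or in the difference of effects under its 23. In the Ppp3r1 contrast the number of collagens lower at an unadjusted p under 0.05 was 1 with a filter at the 50th percentile, with repeated quantile normalization and when the 4 mismatched Ppp3cb-line arrays (KO 6, KO 9, WT 23 and WT 24) were dropped. In these settings 6.86%, 4.5% and 4.58% of all tested probe sets were lower. The number lower was 0 with each line fitted alone, with array weights and with a block for the animals' number series (animals 331 to 336 against 413 to 416). There 3.74%, 4.93% and 3.83% of all tested probe sets were lower. The number higher was 5 with repeated quantile normalization and 8 with array weights, beside 8.39% and 8.68% of all tested probe sets. With each line fitted alone and with array weights, 0 and 2 probe sets were called. The basement membrane median was -0.0948 with the filter at the 50th percentile, which leaves fewer genes, and the Col4a2 difference turned to 0.013 with array weights, and ran from -0.2103 to 0.0131 with 1 array left out. The mismatched arrays were picked by their Ppp3cb value, so counts without them describe the remaining arrays and do not test a KO effect. Without the mismatched arrays, 14 probe sets were called in the Ppp3cb contrast, and the median of the other collagens was 0.0618. At the unadjusted mark 1 collagen was higher there, beside 3.68% of all tested probe sets. In that setting the difference of effects had 7 probe sets called, and 0 collagens lower and 0 higher, beside 1.73% and 1.4% of all tested probe sets. Its basement membrane median was -0.0474, and -0.0494 with the filter at the 50th percentile. Between WT animals, the number of collagens lower at an unadjusted p under 0.05 was 1 with repeated quantile normalization, beside 28.6% of all tested probe sets. Without the mismatched arrays it was 0, beside 25.3%. There 12 collagens and 3324 probe sets were called, with 7.51% of all tested probe sets called higher and 14.3% lower. The cause was not tested where no construction is named.

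Leaving out 1 array at a time gave these ranges. In the Ppp3r1 contrast 1 to 12 probe sets were called, 0 to 5 collagens were lower and 1 to 10 higher at the unadjusted mark. Beside this, 2.4% to 10% of all tested probe sets were lower and 3.28% to 8.44% higher. In the Ppp3cb contrast 0 to 2 probe sets were called, with 0 to 1 collagens lower and 0 to 1 higher. The shares of all tested probe sets were 0.518% to 1.72% lower and 0.675% to 2.16% higher. The difference of effects had 0 to 1 probe sets called, 1 to 3 collagens lower, 1 to 7 higher and a basement membrane median of -0.0398 to 0.154. Its shares of all tested probe sets were 1.59% to 6.92% lower and 1.61% to 4.31% higher. Between WT animals 3099 to 5784 probe sets and 8 to 23 collagens were called, with 1 to 2 collagens lower and 16 to 28 higher at the unadjusted mark. Of all tested probe sets, 15% to 26.1% were called lower and 5.3% to 12.8% higher. At the unadjusted mark 25.7% to 33.3% were lower and 11.6% to 17.6% higher. By Ppp3cb value 7 to 15 collagens were separated on the higher and 0 to 1 on the lower side, beside 8.14% to 11.22% and 6.34% to 10.12% of all tested probe sets. No paired analysis was possible because the groups share no replicate numbers.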
